A study of Mus musculus with 18 samples.

Results

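Dense clusters of distal open regions were groups of at least 4 accessible regions that lay close together and away from gene ends. Of 27396 deposited regions, 27392 lay outside the mitochondrial genome, and 13792 of these lay more than 1 kb from every annotated end of a protein-coding or lncRNA gene (build mm10). Distal regions were joined across short gaps, of which the largest joined was 12.494 kb and the smallest not joined 12.505 kb, and joined groups of 4 or more were kept. This gave 396 clusters with 1909 member regions, which were 6.97% of the nuclear regions and 13.8% of the distal ones. The other 11883 distal regions lay alone or in groups of 2 or 3. The rule used positions only and no count, so levels and differences in the clusters were not fixed by it, although the regions themselves were called from these libraries.

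The material was spleen of wt mice of strain C57BL/6J, and the sources used here name no treatment or age. Nuclei of stained B and T cells were cut by laser capture from frozen sections after transposase treatment of the section, in 4 groups. There were 5 libraries of B patches, 5 of T patches, 4 of B cells at 100 nuclei and 4 of T cells at 100 nuclei. A patch library pooled 10 captured areas with about 1000 nuclei in all, and a 100-nuclei library pooled nuclei captured one at a time. Libraries were technical replicates and no label tied one to an animal, so a p-value here speaks of the spread among libraries, and for mice it would be too small. A captured area of tissue can hold nuclei of neighbouring cells of other types.

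In ATAC-seq a transposase inserts adapters where DNA is not packed into nucleosomes, so counts over a region report how open it is. Enhancers are open, lie at a distance from promoters, and are more specific to a cell type than promoters are. Several enhancers often sit close together beside genes that define a cell's identity, such as the antigen receptor genes and the lineage transcription factors of lymphocytes. A gene name below is only the label of a cluster's position, and which gene a cluster acts on was not measured.

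Although the members avoided the outer ends of genes, 80 clusters had a member that overlapped the bases just before or after a start site inside a gene. Of these 80 clusters, 7 differed between B and T patches in the test described below, against 88 of all 396 clusters. For the 4 of the 7 with the largest fold change, the 250 bases before the start are shown, because there the open regions can be read on the promoter itself. The sequences are from RefSeq (GRCm38.p6), 5′ to 3′ on the gene's strand, and capitals mark the bases that lay inside a deposited open region. The windows were chr1:170927584-170927833 (minus strand) for Fcrla, chr17:75465288-75465537 (plus strand) for Rasgrp3, chr11:46127654-46127903 (plus strand) for Adam19 and chr7:80115351-80115600 (minus strand) for Idh2.
Fcrla: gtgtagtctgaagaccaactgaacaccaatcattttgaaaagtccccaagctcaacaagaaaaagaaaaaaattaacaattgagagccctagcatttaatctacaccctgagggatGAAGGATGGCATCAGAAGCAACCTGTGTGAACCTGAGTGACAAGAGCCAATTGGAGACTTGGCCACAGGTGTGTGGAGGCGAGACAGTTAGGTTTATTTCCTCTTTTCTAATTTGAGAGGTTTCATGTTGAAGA
Rasgrp3: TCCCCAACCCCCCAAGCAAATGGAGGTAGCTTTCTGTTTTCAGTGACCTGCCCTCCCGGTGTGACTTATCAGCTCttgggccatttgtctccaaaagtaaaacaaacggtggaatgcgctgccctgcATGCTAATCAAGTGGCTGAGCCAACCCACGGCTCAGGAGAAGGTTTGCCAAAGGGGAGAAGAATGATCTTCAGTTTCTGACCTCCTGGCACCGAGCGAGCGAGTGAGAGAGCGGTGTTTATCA
Adam19: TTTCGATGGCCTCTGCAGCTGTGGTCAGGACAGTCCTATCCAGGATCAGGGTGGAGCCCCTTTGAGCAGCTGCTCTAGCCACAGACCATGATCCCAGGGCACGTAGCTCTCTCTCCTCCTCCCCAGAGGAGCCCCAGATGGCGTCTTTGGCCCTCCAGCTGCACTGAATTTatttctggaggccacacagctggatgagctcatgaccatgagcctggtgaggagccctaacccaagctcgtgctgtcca
Idh2: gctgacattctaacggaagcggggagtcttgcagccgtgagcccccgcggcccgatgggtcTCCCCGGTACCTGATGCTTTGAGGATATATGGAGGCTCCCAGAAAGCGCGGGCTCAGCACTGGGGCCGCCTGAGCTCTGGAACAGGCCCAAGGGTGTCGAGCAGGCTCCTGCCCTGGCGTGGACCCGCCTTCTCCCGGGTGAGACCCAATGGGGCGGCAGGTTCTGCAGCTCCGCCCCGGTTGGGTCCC
In Fcrla the open region covered the 134 bases nearest the start. In Rasgrp3 there were 2 open regions, one over the 123 bases nearest the start and one over the 75 bases farthest from it. In Adam19 it covered the 171 bases farthest from the start, and in Idh2 it covered 189 bases next to the start. Of these 5 regions, only the one next to the Rasgrp3 start passed the test on its own (log2 fold change 3.08, B over T patches, adjusted p = 0.0403). The other one at Rasgrp3 (0.95, adjusted p = 0.906) and those of Fcrla (1.96, adjusted p = 0.359), Adam19 (1.11, adjusted p = 0.753) and Idh2 (-1.42, adjusted p = 0.344) did not.

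Library totals ran from 2193837 to 7343204 counts in patches and from 319481 to 1076765 at 100 nuclei. Of nuclear counts, the clusters took 5.55% ± 0.479 in B and 5.20% ± 0.390 in T among patches (SD, n = 5), and at 100 nuclei 5.92% ± 0.354 in B cells and 5.89% ± 0.588 in T cells (SD, n = 4). In patches 391 to 396 of the 396 clusters had reads. At 100 nuclei 285 to 343 had reads in B libraries and 169 to 335 in T libraries, and 282 to 343 and 168 to 334 after each library was thinned to 241786 nuclear counts. The labels were checked on regions within 1 kb of the ends of marker genes. The 33 regions of B cell identity genes took 0.163% to 0.220% of nuclear counts in B patches, against 0.0629% to 0.0712% in those of T, and 9 were higher in B and 0 in T. The 31 regions of T cell identity genes took 0.126% to 0.180% in T patches, against 0.0513% to 0.0919% in those of B, with 0 higher in B and 5 in T. Among all tested regions at gene ends, 0.850% were called in either direction. Both lists thus followed the labels without overlap between the patch groups, and neither was near 0 in the other cell type. At 100 nuclei the B list took 0.172% to 0.251% in B libraries and 0.000827% to 0.133% in T libraries, so it was near 0 in at least 1 T library, and 14 of its 33 regions had no read in any T library. The T list took 0.102% to 0.155% in T and 0.0375% to 0.0783% in B at 100 nuclei, and neither list overlapped between these groups.

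The clusters were small: 209 had 4 members, 105 had 5, 67 had 6 or 7 and 15 had 8 or more. The median span was 15.03 kb (range 0.61 to 53.5 kb) and the median gap between neighbours was 2.81 kb. Some neighbours nearly touched, since 348 of the 1513 gaps (23.0%) were under 0.2 kb, and such neighbours may be parts of 1 accessible stretch. Genes held members of 314 clusters, 204 of these wholly within 1 gene, and 82 clusters lay wholly between genes. Members had a median width of 172 bases, against 154 for other distal regions and 283 at gene ends. Their median level in patches was 14.8 normalized CPM (counts scaled to a common library size), against 9.51 for other distal regions and 22.9 at gene ends, and 66.6% lay inside a gene body against 63.0% of other distal regions.

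Between B and T patches, 53 clusters were higher in B and 35 in T, 88 of 396 in all (22.2%). These are calls of edgeR's quasi-likelihood test on summed counts at an adjusted p under 0.05, made in a table where every group of joined distal regions, of any size, was summed and every other region stood alone. Of its 21675 features, 3.33% were called, 1.89% higher in B and 1.44% higher in T. The called share rose with the number of regions summed, from 3.63% for distal regions alone to 10.2% for 2, 18.2% for 3 and 23.9% for 4, and was 21.0% for 5 and 19.5% for 6 or more. The median level rose along with it, from 9.17 CPM for distal regions alone to 84.6 CPM for clusters, while the median absolute log2 fold change fell from 0.90 to 0.57. The higher share of calls in clusters thus came with higher counts and smaller fold changes, and the part of the counts in it was not tested. In 113 clusters (28.5%) the B and T libraries did not overlap, 71 with B above and 42 with T above, against 7.9% of all features. In bulk captures, fewer nuclei of a type and less open chromatin per nucleus cannot be told apart.

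**Figure D1:**
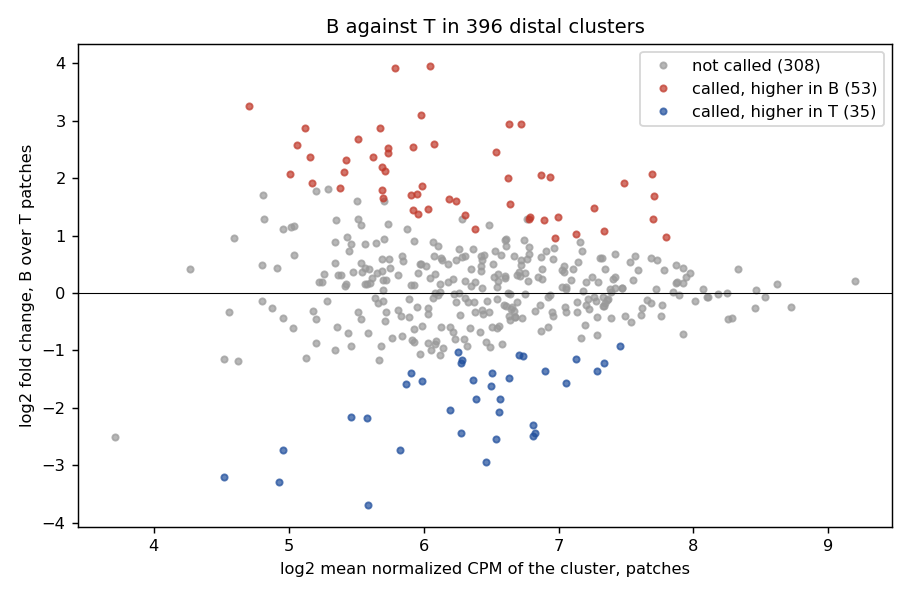
Each point is 1 of the 396 clusters, by its mean level in the patch libraries (x axis, log2 normalized CPM) and its log2 fold change of B over T patches (y axis). The 53 clusters called higher in B (red) reach a log2 fold change of 3.95 and the 35 called higher in T (blue) reach -3.68, and 308 clusters were not called (grey).

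The number of calls depended on the fit. With all 18 libraries in 1 fit, in which patches and 100-nuclei libraries shared 1 estimate of spread, 0 of the 396 clusters were called (27 at an unadjusted p under 0.05), with nearly the same fold changes. With 1 patch library left out the count ran from 62 to 89, and without each cluster's most abundant member it was 56. Scaled to library size alone, 42 were higher in B and 41 in T, and the median of all features moved by -0.17 on the log2 scale. Mitochondrial regions took 18.8% to 33.6% of the total in B patches and 16.1% to 23.1% of it in T patches, and without them 88 clusters were called.

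Several clusters spanned or lay near segments of the immunoglobulin genes. These genes encode the B cell receptor and antibodies. The cluster at chr16:19052826-19067266 spanned the lambda constant and joining segments Iglc1, Iglj1, Iglc3 and Iglj3, with 4 members in 14.4 kb. Its CPM were 222, 216, 175, 189 and 132 in the 5 B patch libraries and 34.3, 11.9, 14.4, 22.4 and 37.8 in the 5 T patch libraries. Every B library was above every T library (log2 fold change 2.95 ± 0.33 SE, adjusted p = 0.000131), and 3 of the 4 members passed the test singly. A second cluster, 50.8 kb from Iglc1 and 32.4 kb from Hira, a histone chaperone gene (chr16:19002723-19010979), had 71.3 to 110 CPM in B and 12.7 to 22.3 CPM in T (2.196 ± 0.34, adjusted p = 0.000926).

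At the kappa light chain locus, 6 members over 34.8 kb (chr6:70709430-70744261) spanned Igkj1 to Igkj5 and the constant segment Igkc. Its CPM were 249, 120, 205, 203 and 167 in B patches and 61.3, 61.4, 21.5, 44.2 and 40.7 in T patches. The groups did not overlap (log2 fold change 2.05 ± 0.30, adjusted p = 0.000623), and the leading member, chr6:70735523-70735924, had 74.2 ± 30.2 CPM in B and 8.30 ± 7.18 in T (SD, n = 5). Beside the heavy chain constant genes, 6 members at chr12:113218044-113228915, 27.3 kb from Igha and 28.5 kb from Tmem121, had 248 to 328 CPM in B and 50.5 to 99.1 CPM in T (1.91 ± 0.24, adjusted p = 0.000199). Another cluster, 42.0 kb from Iglc4, did not pass (1.70 ± 0.49, adjusted p = 0.0613). All of these but the cluster at Iglc1 were singled out after their values were seen, so no count is drawn from them.

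Among transcription factors of B cells, Mef2c, needed for B cell proliferation after receptor signals, had a cluster inside it and was the nearest protein-coding gene of another. The distal cluster was the largest called one with 9 members over 39.7 kb, at chr13:83045616-83085282 419 kb from Mef2c, with 3 members inside the predicted gene Gm33073 and 6 between genes. Its CPM were 157, 261, 166, 203 and 91.6 in B patches and 13.4, 40.5, 15.2, 31.1 and 14.9 in T patches. All 5 B libraries lay above all 5 T libraries (log2 fold change 2.95 ± 0.36, adjusted p = 0.000179). All 9 members had a higher fitted level in B, with log2 fold changes of 1.08 to 5.38, yet only 1 passed the test singly, chr13:83085060-83085282, with 28.6 ± 22.2 CPM in B and 0.581 ± 0.971 in T (adjusted p = 0.0136). The 4 members inside Mef2c (chr13:83518169-83532255, singled out after their values were seen) summed to 113, 109, 77.6, 121 and 96.0 CPM in B and 13.1, 13.9, 8.94, 33.1 and 20.3 CPM in T. Again no library overlapped (2.53 ± 0.37, adjusted p = 0.00056).

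The cluster at Fcrla, an intracellular Fc receptor-like protein of B cells, whose promoter is shown above, had CPM of 141, 102, 110, 106 and 109 in B and 15.7, 3.69, 13.0, 11.7 and 21.4 in T. It lay at chr1:170927557-170939495, and B exceeded T in every library (3.10 ± 0.38, adjusted p = 0.000179). Its leading member, chr1:170928510-170928881, gave 54.4% of the cluster's level, with 64.4 ± 14.5 CPM in B and 4.47 ± 3.21 in T (adjusted p = 0.00382). The cluster at Bank1, a scaffold of B cell receptor signalling (chr3:136300897-136331428), had CPM of 133, 121, 52.3, 92.0 and 51.4 in B and 6.06, 18.02, 13.3, 12.7 and 11.8 in T. The groups were apart (2.87 ± 0.41, adjusted p = 0.000465), although 0 of its members passed the test singly.

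Rasgrp3 encodes an exchange factor that activates Ras downstream of the B cell receptor. Its cluster (chr17:75460768-75472693) had CPM of 49.7, 98.1, 85.1, 83.0 and 79.1 in B and 17.2, 9.01, 4.79, 13.9 and 16.8 in T, without overlap (2.68 ± 0.42, adjusted p = 0.000961). The member next to the start shown above gave 54.7% of the level, and without it the cluster's difference was 2.28 and did not pass (adjusted p = 0.155). Pik3c2b, a class II phosphoinositide kinase, had 103 to 123 CPM in B and 6.96 to 27.3 CPM in T at its cluster (2.59 ± 0.34, adjusted p = 0.000284). The cluster at Il5ra, the interleukin 5 receptor alpha chain, had 24.7 to 60.6 CPM in B and 2.73 to 7.0 CPM in T (3.26 ± 0.53, adjusted p = 0.00145). Only its first member lay inside the gene, and the others lay between genes. The 2 largest fold changes on the B side were at less familiar addresses, 3.95 ± 0.61 at 4933404K13Rik, 46.6 kb from Qrsl1 (21.7 to 194 CPM in B and 0 to 13.4 in T, adjusted p = 0.000926), and 3.92 ± 0.51 at the protease inhibitor gene Serpinb7 (62.5 to 147 CPM in B and 0.819 to 11.4 in T, adjusted p = 0.000284).

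**Figure D2:**
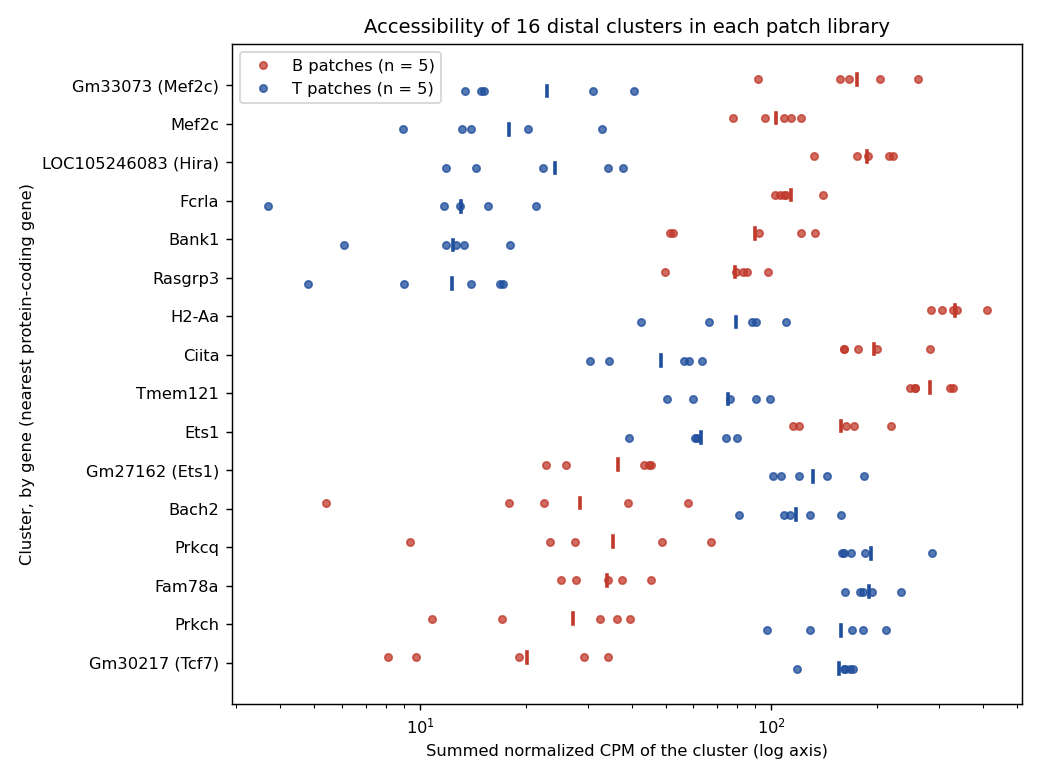
Summed normalized CPM (x axis, log scale) of 16 called clusters (y axis, by gene, with the nearest protein-coding gene in brackets) in each of 5 B patch (red) and 5 T patch (blue) libraries, with the group mean as a bar. In none of the 16 do the B and T libraries overlap, and the highest levels are those of the H2-Aa cluster in B, 286 to 410 CPM.

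MHC class II molecules present peptides to helper T cells, and B cells carry them constantly. Of 4 clusters within 50 kb of the listed class II genes, 3 were higher in B patches and 0 in T (median log2 fold change 1.55, against 0.16 over all clusters and -0.03 over all features). Over all clusters 22.2% were called. The cluster that spanned H2-Aa, with H2-Ab1 and H2-Eb1 within 50 kb (chr17:34280703-34301493, 8 members), had CPM of 410, 306, 338, 286 and 330 in B and 88.4, 42.6, 66.3, 90.2 and 110 in T. Every B library was far above every T library (2.07 ± 0.25, adjusted p = 0.000179), and 7 of 8 members had a higher fitted level in B. The signal was uneven along it, since 3 adjoining members at its start had at most 9.88 CPM in B, and the 5 others 45.4 to 75.6 CPM. Ciita encodes the class II transactivator, and the cluster inside it (chr16:10496017-10516543) had 161 to 282 CPM in B and 30.4 to 63.7 CPM in T (2.01 ± 0.28, adjusted p = 0.00038). At H2-DMa, whose product helps load peptides, the difference was 1.08 ± 0.27 (adjusted p = 0.0246). It did not pass when B patch 1, B patch 3, T patch 1 or T patch 4 was dropped (adjusted p = 0.0684 to 0.0755) or with scaling to library size (0.92, adjusted p = 0.056) or without its most abundant member (1.34, adjusted p = 0.311). Its groups did not overlap, with 192 to 254 CPM in B and 55.3 to 147 CPM in T. The cluster near Cd74, the invariant chain, did not pass (0.73 ± 0.26, adjusted p = 0.166).

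Myeloid and dendritic cells also carry class II molecules. With 22.2% of all clusters called, 2 of the 3 near their markers were higher in B (median 1.26). These were Flt3, a receptor of progenitors and dendritic cells (1.44 ± 0.35, adjusted p = 0.0226), and the cluster between Adgre1, the macrophage marker F4/80, and Vav1, a signalling protein of blood cells (1.26 ± 0.26, adjusted p = 0.0086). Dropping B patch 3, B patch 5, T patch 3, T patch 4 or T patch 5 ended the Flt3 call (adjusted p = 0.0533 to 0.066), as did scaling to library size (1.25, adjusted p = 0.0586). The Flt3 cluster also did not pass without its most abundant member (1.29, adjusted p = 0.131). At the ends of these marker genes themselves, 7 regions of 5 of the 16 genes took 0.00896% to 0.0196% of nuclear counts in B patches, overlapping the 0.0117% to 0.0190% of T patches, and 0 of the 7 were called. None of the markers of stroma or of erythroid cells had a cluster, and the 1 natural killer marker with a cluster, Klrb1c, differed by 0.10 ± 0.30 (adjusted p = 0.97). The part of other cell types in the differences was not tested.

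On the T side, the cluster beside Tcf7, the gene of TCF1, a transcription factor of T cell development and memory, lay 16.1 kb from it (chr11:52299516-52314542). Of its 4 members 3 were inside the predicted gene Gm30217 and 1 was between genes. Its CPM were 119, 162, 171, 161 and 167 in T patches and 19.1, 9.73, 34.2, 8.12 and 29.3 in B patches. The groups did not overlap (log2 fold change -2.95 ± 0.37, B over T, adjusted p = 0.000179). Its leading member, chr11:52299516-52299983, the one between genes, gave 56.6% of the level, with 84.5 ± 25.1 CPM in T and 15.4 ± 10.5 in B (adjusted p = 0.00566), and without that member the cluster's difference was -3.88 (adjusted p = 0.00593).

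Of 3 protein kinase C genes that held a cluster, Prkcq and Prkch were higher in T, and Prkcb, the isoform of B cell receptor signalling, did not pass (0.14 ± 0.34, adjusted p = 0.963). Prkcq encodes the isoform that relays T cell receptor signals, and the 7 members of its cluster over 44.8 kb (chr2:11159776-11204547), 4 of them inside the gene, summed to 168, 287, 159, 185 and 161 CPM in T and 48.9, 9.36, 27.6, 67.2 and 23.4 CPM in B. The T libraries were all higher (-2.43 ± 0.38, adjusted p = 0.00105), all 7 members had a higher fitted level in T, and 0 of the 7 passed singly. Prkch, another isoform, had CPM of 170, 212, 129, 182 and 96.9 in T and 39.7, 32.6, 10.8, 36.3 and 17.1 in B at 4 members (chr12:73593513-73605032). These did not overlap either (-2.53 ± 0.35, adjusted p = 0.00038).

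The smallest p of any cluster was at Fam78a, a gene of little known function (chr2:32037337-32065697). Its CPM were 234, 182, 179, 193 and 163 in T and 27.8, 45.3, 25.1, 37.5 and 34.2 in B, and 3 of 5 members passed singly (-2.49 ± 0.26, adjusted p = 7.11e-05). At the T cell receptor beta locus, 4 members within 5.84 kb spanned the variable segments Trbv12-1, Trbv13-1 and Trbv12-2 (chr6:41113025-41118869), with 44.0 to 63.1 CPM in T and 2.09 to 8.57 CPM in B (-3.29 ± 0.50, adjusted p = 0.000926). Of that level 50.4% came from 1 member, and without it the cluster did not pass (-2.20, adjusted p = 0.127). The largest difference on the T side was at Itgb3, the integrin beta 3 chain, with 65.8 to 129 CPM in T and 0 to 13.3 CPM in B (-3.68 ± 0.62, adjusted p = 0.00194). The clusters at Gm52008, a predicted gene (-2.44 ± 0.31, adjusted p = 0.000199), and Cox10, an assembly factor of cytochrome oxidase (-2.72 ± 0.45, adjusted p = 0.00165), were higher in T in every library. St8sia1, a ganglioside synthase (-3.20 ± 0.80, adjusted p = 0.0264), and one of 2 clusters called at Atp10a, a lipid flippase (chr7:58686718-58710570, -2.73 ± 0.75, adjusted p = 0.0458), were called too, but neither was robust to dropping 1 library, with 8 of 10 such fits ending each call at adjusted p = 0.0514 to 0.0759 and 0.0725 to 0.118. St8sia1 kept it only without B library 1 or 2, and the Atp10a cluster only without B library 2 or 4. Without the most abundant member, neither St8sia1 (-2.39, adjusted p = 0.251) nor the Atp10a cluster (-2.73, adjusted p = 0.104) passed.

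A pair of clusters in and beside Ets1 pointed in opposite directions. Ets1, a transcription factor of both lymphocyte lineages, held 5 members (chr9:32652046-32672479) with CPM of 220, 163, 115, 172 and 120 in B and 61.3, 74.1, 39.4, 80.0 and 60.8 in T. This cluster was higher in B in every library (1.33 ± 0.27, adjusted p = 0.00712). The other, 168 kb from Ets1 (chr9:32926284-32950409, singled out after its values were seen), had 1 member inside the predicted gene Gm27162 and 3 between genes, with CPM of 101, 120, 144, 184 and 107 in T and 26.0, 44.9, 45.5, 43.3 and 22.8 in B. That one was higher in T in every library (-1.85 ± 0.30, adjusted p = 0.00129). Each rested on 1 strong member: chr9:32652046-32652602 in Ets1 (103 ± 28.9 CPM in B and 20.5 ± 12.3 in T, adjusted p = 0.00532) and chr9:32926284-32926638 (10.7 ± 6.16 in B and 70.6 ± 20.4 in T, adjusted p = 0.00466). Without these members the clusters' differences were 0.37 (adjusted p = 0.805) and -1.24 (adjusted p = 0.244).

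**Figure D3:**
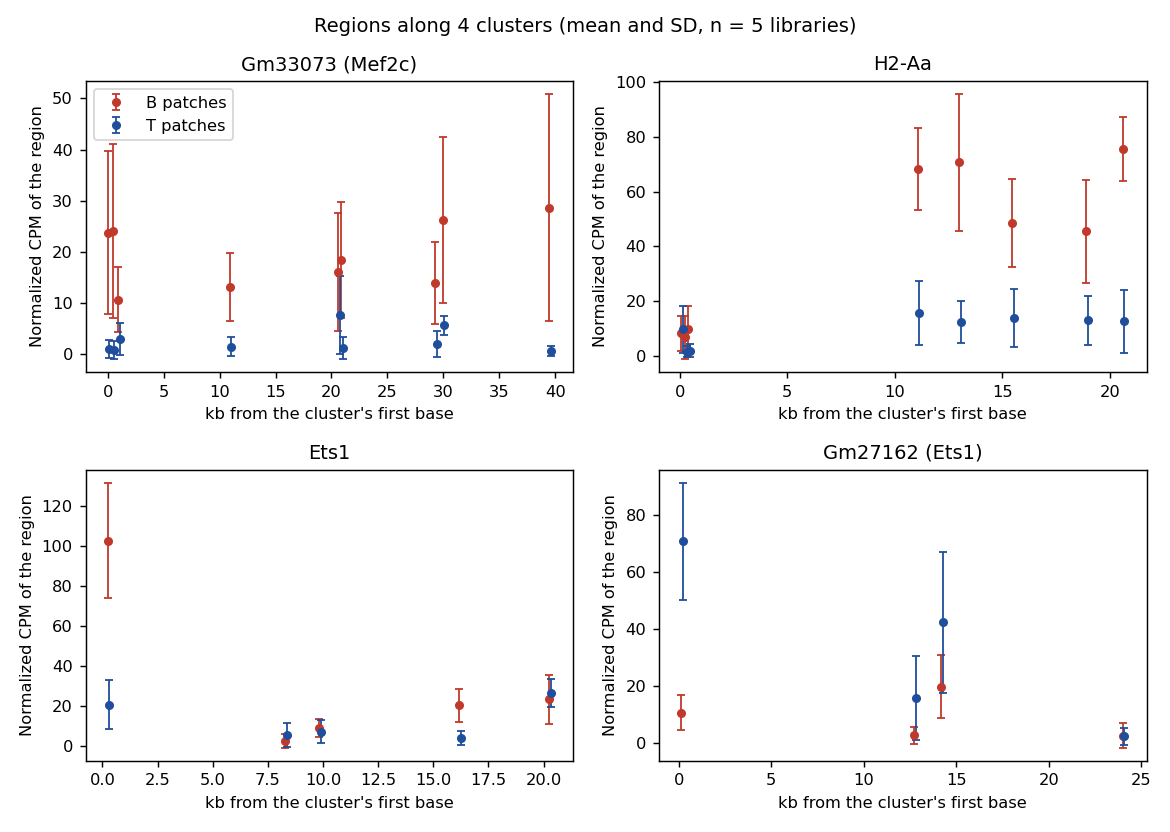
Mean normalized CPM with SD (y axis) of each member region in B (red) and T (blue) patches, n = 5 libraries each, by its distance in kb from the first base of 4 clusters (x axis). In the Gm33073 cluster all 9 members are higher in B, in H2-Aa the 5 members past 10 kb carry the difference, and in the clusters at Ets1 and Gm27162 the first member has the widest gap, in opposite directions.

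Bach2 encodes a repressor that keeps B cells from becoming plasma cells and is also active in T cells. On the list of B cell identity genes, its cluster of 4 members inside the gene (chr4:32335756-32363903) was the exception, with 113, 109, 129, 81.0 and 158 CPM in T and 57.9, 22.5, 5.40, 39.0 and 17.9 CPM in B. It was higher in T in every library (-2.04 ± 0.43, adjusted p = 0.00976). A second Bach2 cluster did not pass (-1.06 ± 0.50, adjusted p = 0.378). Of the 6 clusters of that list 3 were higher in B and 1 in T (median 1.26), where 22.2% of all clusters were called. Beside Fcrla and Bank1, those higher in B included Pax5, the B lineage commitment factor (1.63 ± 0.41, adjusted p = 0.0273, named after its value was seen). Of 3 clusters of the T cell identity list (median 0.12), Tcf7 was higher in T, Ets1 was higher in B, and the cluster near Lck, the first kinase of T cell receptor signalling, differed by 0.12 ± 0.26 (adjusted p = 0.954).

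Signalling genes beyond Rasgrp3 and Prkcq mostly did not pass, but neither did most clusters of any kind (22.2% of all 396 were called). Of 7 clusters of B cell receptor signalling genes 1 was higher in B and 0 in T (median 0.44). Of 6 clusters of T cell receptor signalling genes 0 were higher in B and 1 in T (median 0.15). The 8-member cluster in Pik3ap1, the BCAP adaptor of B cells, had 90.7 to 168 CPM in B and 1.23 to 85.9 CPM in T, a difference of 1.19 ± 0.51 that did not pass (adjusted p = 0.300). Its groups did not overlap, and T library 2 held the single low value of 1.23. Nfatc1, a calcium-regulated transcription factor, differed by 0.79 ± 0.25 (adjusted p = 0.104), and Csk, an inhibitor of Src kinases, by 0.41 ± 0.23 (adjusted p = 0.494). Cblb, a ubiquitin ligase that restrains T cells, differed by 0.29 ± 0.27 (adjusted p = 0.807).

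Of 8 clusters of homing genes, 1 was higher in B and 1 in T (median -0.11), where 22.2% of all clusters were called. The first lay between genes, nearest to the end of LOC108167647, and was listed for Cxcr5, which has an end within 50 kb. Cxcr5 is the receptor that draws B cells into follicles. This cluster had 137 to 171 CPM in B and 28.7 to 87.8 in T (1.29 ± 0.29, adjusted p = 0.0146). It did not pass without its most abundant member (1.08, adjusted p = 0.134). The second was at Ccr7, the receptor that draws T cells into the T zone, with 69.3 to 145 CPM in T and 30.7 to 83.8 in B (-1.21 ± 0.32, adjusted p = 0.0412). The Ccr7 groups overlapped, and the call held only without B library 2 or T library 5 among the fits with 1 library left out (adjusted p = 0.0593 to 0.137 in the other 8). Without its most abundant member the Ccr7 cluster did not pass (-1.22, adjusted p = 0.101). S1pr1, the receptor for exit from lymphoid tissue, differed by -0.39 ± 0.23 (adjusted p = 0.573).

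Transcription factors shared by both lineages gave 1 cluster higher in B and 1 in T out of 8 (median -0.42). The called share of all clusters was 22.2%. The B-side cluster lay in the potassium channel gene Kcnj1 beside Fli1, an Ets factor of blood cells (48.5 to 143 CPM in B and 6.35 to 24.2 in T, 2.37 ± 0.44, adjusted p = 0.00375). The T-side cluster lay in Foxp1, a factor of lymphocyte quiescence (103 to 169 CPM in T and 47.2 to 84.3 in B, -1.07 ± 0.26, adjusted p = 0.0226). Foxp1 did not pass when any of B patches 3 to 5 or T patches 3 to 5 was dropped (adjusted p = 0.0508 to 0.0762). The cluster in Elf1, another Ets factor, missed the threshold (-0.73 ± 0.23, adjusted p = 0.103). Of 5 clusters of survival and cytokine genes (median 0.04), the one at Tnfrsf13b, the TACI receptor for the survival factor BAFF, was the only one called (2.36 ± 0.65, adjusted p = 0.0485), a call that 8 of 10 fits lost on dropping 1 library (adjusted p = 0.0572 to 0.132), all but those on dropping T patch 1 or 2. The Tnfrsf13b call was also lost without its most abundant member (2.66, adjusted p = 0.0519). The Bcl2 cluster, at a gene against cell death, missed the threshold (1.20 ± 0.36, adjusted p = 0.0738).

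Of the 15 clusters with 8 or more members, 3 were called, against 22.2% of all clusters. These 3 were higher in B, as were 53 of the 88 called in all. They were Gm33073, H2-Aa and, named after its value was seen, Dtx1, a ubiquitin ligase of the Notch pathway (1.29 ± 0.23, adjusted p = 0.00273). Dipk1a, a kinase-like gene, held the most, 11 over 53.5 kb (chr5:107926638-107980166), with 158 to 366 CPM in B and 98.0 to 339 CPM in T (0.40 ± 0.30, adjusted p = 0.729). Mcl1, a survival gene needed by all lymphocytes, had 9 members with 258 to 286 CPM in B and 245 to 309 CPM in T (-0.06 ± 0.19, adjusted p = 0.97). The standard error at Mcl1 was the smallest of these 15. Ralgds, an exchange factor for Ral (0.60 ± 0.28, adjusted p = 0.365), Ppp1r16b, a phosphatase regulator (0.06 ± 0.23, adjusted p = 0.977), Tg, which holds the lymphocyte adaptor gene Sla (-0.10 ± 0.26, adjusted p = 0.966), and Nrros, a regulator of TGF-beta release (0.40 ± 0.23, adjusted p = 0.558), did not pass. A p above the threshold does not show that these were equal.

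Taken singly, 82 of the 1857 members that passed the count filter were called, 54 higher in B and 28 in T, which is 4.42% against 2.27% of all 25712 regions tested (1.22% higher in B and 1.05% in T). Other distal regions gave 3.63% and gene ends 0.850%. The split turned with the scaling, to 39 in B and 40 in T with library size alone. The count also rested on single libraries: it was 34 without B library 1, 40 without B library 3, 39 without B library 4, 46 without B library 5, 51 without T library 1, 43 without T library 3 and 48 without T library 4, and 86 to 92 without library 2 of either type.

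Members of a called cluster mostly shared its sign, as the sum requires of its larger members. In the 53 clusters higher in B, 237 of 245 tested members (96.7%) had a fitted difference toward B, and in the 35 higher in T, 159 of 165 (96.4%) had one toward T. In the 308 clusters not called, 1028 of 1447 members (71.0%) had the sign of their cluster. At least 1 member passed singly in 25 of the 53 and in 19 of the 35, and in the other 28 and 16 only the sum passed. In 0 clusters did members pass in both directions. The most abundant member gave a median of 39.1% of a cluster's level.

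**Figure D4:**
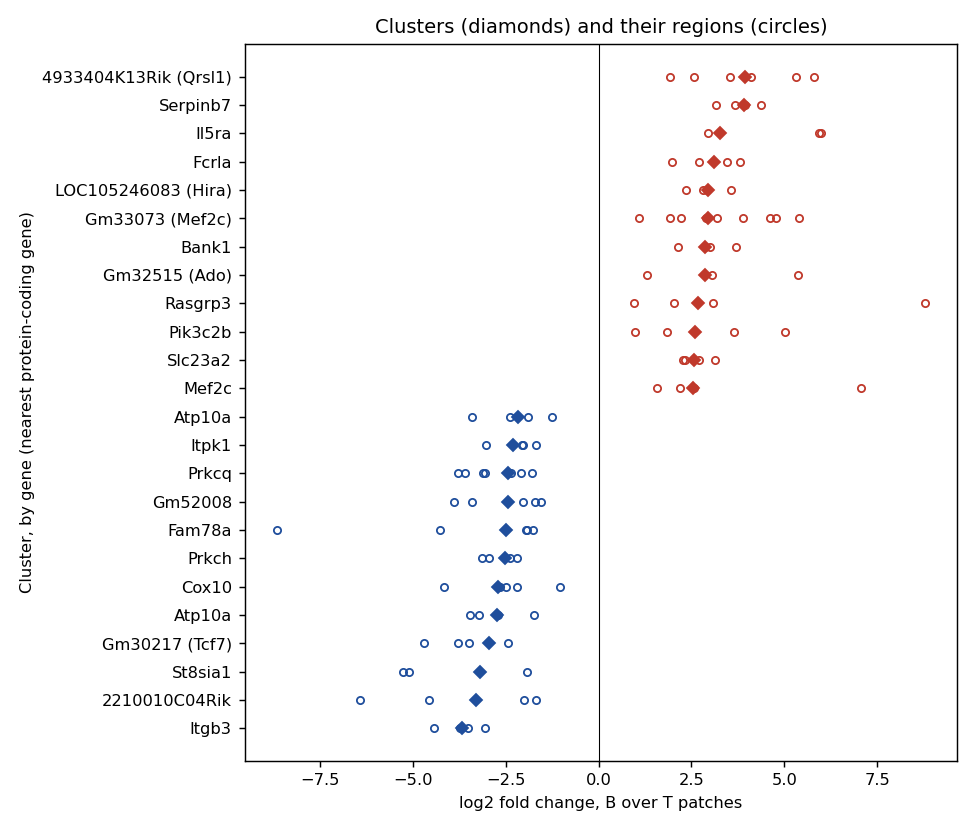
Log2 fold change of B over T patches (x axis) for the 12 highest and 12 lowest called clusters (y axis, by gene; diamonds) and for their tested members (circles). The members lie on the same side of 0 as their cluster; circles beyond about 6 are fitted values with almost no reads in 1 group and give no measure of size.

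At 100 nuclei, edgeR's test called 0 of the 396 clusters, against 0.0185% of 21675 features. At an unadjusted p under 0.05 there were 23 (5.81%), against 5.63% of features, and DESeq2 also called 0 (25 at an unadjusted p under 0.05). Of the 1857 members tested singly 0 were called, against 0.0156% of regions (133 at an unadjusted p under 0.05). On simulated counts of this depth, the test recovered 0 of 50 features changed 16-fold. The simulation may not match the uneven real counts, so it does not set what was detectable here. The lack of calls does not show that B and T were equal. With 18 libraries in 1 fit, 40 clusters were called, 31 higher in B and 9 in T, which is 10.1% against 23.1% of the 21675 features.

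The clusters called in patches could still be followed in these libraries, which entered the count filter but not the fit of the patches. Of the 53 clusters higher in B patches, 51 had a fitted difference toward B at 100 nuclei, and of the 35 higher in T, 31 had one toward T. Of the 308 not called, 199 had the sign they had in patches. Clusters leaned toward B at 100 nuclei, so a sign toward B was the more common one there. Their median log2 fold change was 0.46 over all clusters and 0.39 over those not called, against 0.04 over all features. The 53 clusters together took 0.923% ± 0.113 of nuclear counts in B patches, against 0.279% ± 0.033 for T (SD, n = 5). At 100 nuclei they took 0.963% to 1.22% in the 4 B libraries and 0.221% to 0.433% in the 4 T libraries, with no overlap. The 35 clusters took 0.624% ± 0.0956 in T patches, against 0.195% ± 0.0342 for B, and at 100 nuclei 0.143% to 0.251% in B and 0.617% to 0.729% in T, again with no overlap. The sources used here do not say whether both kinds of capture came from the same animals.

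**Figure D5:**
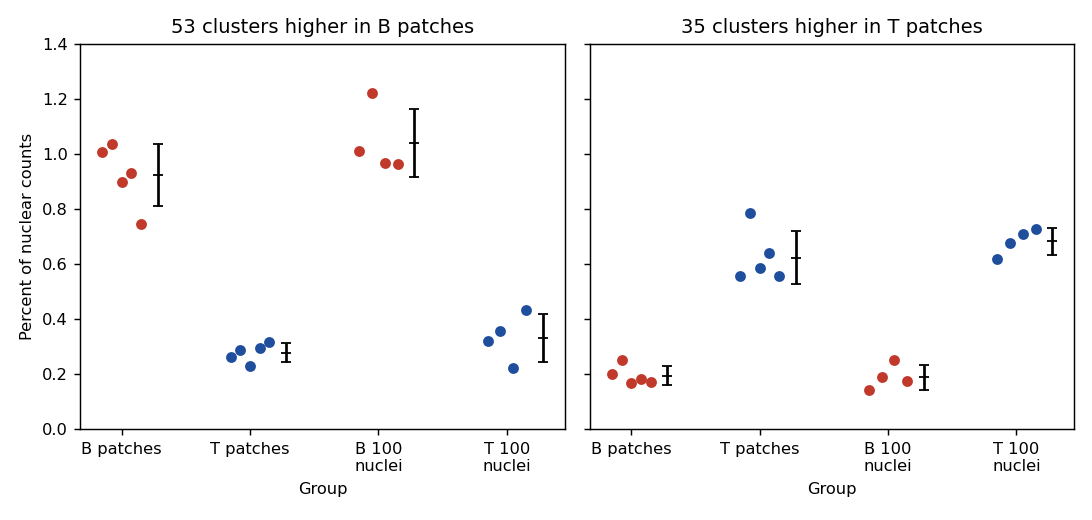
Share of nuclear counts (y axis, percent) in the 53 clusters called higher in B patches (left) and the 35 called higher in T patches (right) for each library of the 4 groups (x axis), with mean and SD beside the points. The patch values chose the clusters; at 100 nuclei the B libraries lie at 0.963 to 1.22 and the T libraries at 0.221 to 0.433 on the left, and at 0.143 to 0.251 and 0.617 to 0.729 on the right.

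Single clusters at 100 nuclei were sparse and uneven. The H2-Aa cluster had 944 counts over all 4 B libraries and 56 counts in 2 of the 4 T libraries. The Tcf7 cluster had 975 counts over all 4 T libraries and 51 in 2 B libraries. Itgb3 had 211 counts in 3 T libraries and 0 in B, and Il5ra had 111 counts in 2 B libraries and 0 in T. The Gm33073 cluster, which had the most members among called clusters, had 238 counts in B and 117 in T. At Serpinb7, among the largest fold changes toward B in patches, the leading member had 57 counts in 1 T library and 0 in B. Of its other members with reads, one had 35 counts in B and 0 in T, and one had 38 in B and 12 in T. The test of the difference between capture sizes called 0 of 396 clusters (30 at an unadjusted p under 0.05), against 0.0185% of features called and 25.2% at an unadjusted p under 0.05. DESeq2 called 23 clusters (5.81%), a lower share than its 11.9% of all features. Leaving out 1 library gave 27 clusters without T 100-nuclei library 1 (6.82%, against 4.66% of features), 9 without T 100-nuclei library 2 (2.27% against 0.992%), 5 without B 100-nuclei library 1 (1.26% against 0.965%), 3 without B 100-nuclei library 3 (0.758% against 0.382%) and 0 without each of the others.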

How the data were processed

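ATAC-seq was run on 18 libraries of laser-captured mouse spleen nuclei, read as paired-end 50 reads per the labels. The authors deposited raw counts of reads per region in 1 table (27396 regions), with totals from 319481 to 7343204 per library. The build was mm10 and the tools were MACS2 2.2.7.1, Bowtie2 2.4.5, SAMtools 1.14, Trimmomatic 0.36, Picard, bcl2fastq 2.20, R 4.1.0 and deepTools 3.5.2, per the submitters' processing notes. The sources used here do not give their roles, duplicate removal, any shift for the transposase, or whether region starts count from 0 or 1. No molecular identifiers are stated, so counts are not independent molecules.

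Gene ends came from a RefSeq gene table of GRCm38.p6, which has mm10 coordinates. Distal rows were joined and their counts summed, and the other rows were kept single. The tests were those of edgeR 4.0.16 (R 4.3.3), with TMM factors, a minimum count of 10 in filterByExpr (4 groups), the quasi-likelihood F-test, and p-values adjusted by Benjamini-Hochberg over all 21675 features (25712 for single regions), called at 0.05. All 396 clusters and 1857 of 1909 members passed the filter. B was compared with T within each capture size on those libraries alone, and the difference between sizes on all 18. Standard errors were the log2 fold change over the square root of F. CPM were counts scaled with TMM factors, mean ± SD.

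Clusters were named by the gene holding most members, else by the nearest gene. Those named were the 8 with most members, the called clusters with the 10 highest and 10 lowest fold changes whose libraries did not overlap, and up to 3 per gene list by smallest p, with list genes within 50 kb. Not all are printed, some genes are not reported here, and clusters outside the rule are marked as named after their values were seen. The members and lists were chosen with earlier results of these data known.

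Alternatives were DESeq2 1.42.0, other scalings, filters, gaps and distances, the replicate number as a block, 1 fit of all libraries, and leaving out the most abundant member or each library. On simulated data over 21675 features, the patch test recovered 8 of the 50 features changed 2-fold, 41 of 50 changed 4-fold and 50 of 50 changed 8-fold or 16-fold, with 9 false calls among 21475. The 100-nuclei test recovered 0 of 50 at each size. Features were simulated independently of each other. No genome sequence was used here, so no sequence of members outside promoters was read.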

Additional observations from a re-analysis of the deposited data

Results flagged for a closer look

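A library far from the other libraries of its group, by Dixon's 95% limit for 4 or 5 libraries, was found in 9 of 132 groups tested, and chance gives about 1 in 20. T patch library 2, the shallowest of its group, was the highest at Prkcq (287 CPM), S1pr1 (325 CPM) and St8sia1 (66.7 CPM), and had the fewest clusters (391) and members (1446) with reads. T patch library 5 was the highest at Gm32515 (21.2 CPM), library 1 the lowest at the Tcf7 cluster at Gm30217 (119 CPM) and library 3 the lowest at Nrros (77.0 CPM). B patch library 1 was the highest at Fcrla (141 CPM). The calls at Prkcq, Fcrla, Gm32515 and Gm30217 were kept with each patch library left out in turn, and St8sia1 lost its call in 8 of 10 such fits (adjusted p = 0.0514 to 0.0759), among them the fit without T patch library 2.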

How the results depend on the processing

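For B against T patches, the 88 cluster calls became 20 of 115 clusters with a joining gap of 5 kb, 155 of 726 with 25 kb, 56 without the most abundant member, 0 in 1 joint fit of 18 libraries and 62 to 89 with 1 library left out. They were 67 of 295 clusters (22.7%) with members over 2.5 kb from gene ends, and 71 to 112 of 396 under the other settings. The 82 member calls became 278 with DESeq2, 37 with the replicate block, 0 in the joint fit, 165 without both patch libraries numbered 2 (chosen after seeing the data) and 34 to 92 with 1 library left out. At 100 nuclei the joint fit called 40 clusters (10.1%, against 23.1% of features) and 618 members (33.3%, against 27.0% of regions) in place of 0, and every other setting 0. The difference between capture sizes gave 23 clusters with DESeq2 (5.81%, against 11.9% of features) and 0 to 27 with 1 library left out. The share of nuclear counts in clusters was, at gaps of 5 and 25 kb, 1.49% and 10.8% in B patches, 1.30% and 10.3% in T patches, 1.60% and 11.3% in B 100 nuclei and 1.38% and 11.5% in T 100 nuclei, since the gap sets which regions belong.

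Of 54 single clusters followed, 37 were called, and 30 of these kept the call with each library left out. None of the 37 changed sign under any setting, and 37 lost the call in the joint fit, 12 without the most abundant member, 4 with the block, 3 with library size, 2 with a minimum count of 30 and 0 with DESeq2. The blocked values were -1.08 at Foxp1 (adjusted p = 0.0588), -3.71 at St8sia1 (0.0549), -3.26 at Atp10a (0.0869) and 2.88 at Tnfrsf13b (0.0913). Bcl2, Elf1 and Nfatc1, not called, passed with DESeq2 (adjusted p = 0.0313, 0.0177 and 0.0347). Uncalled clusters near 0 changed sign: with library size Ppp1r16b -0.11, Fam167b (near Lck) -0.047 and Klrb1c -0.10, without the most abundant member Klrb1c -0.027, Tg 0.10 and Nrros -0.12, and with 1 library left out Ppp1r16b (-0.0080 to 0.23), Klrb1c (-0.028 to 0.34), Il21r (-0.32 to 0.0024) and Tg (-0.31 to 0.011). The cause was not tested. A pairing of libraries by replicate number was not seen: same-numbered B and T libraries correlated at -0.0014 to 0.0323 in patches (own number best in 1 of 5) and -0.0074 to 0.0134 at 100 nuclei (2 of 4). Such low correlations do not show that the libraries were unpaired.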

Other observations

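Further called clusters are given here as single examples, picked after their values were seen. Higher in B patches were Cd38, an ectoenzyme of the cell surface (65.4 to 121 CPM in B and 14.9 to 42.2 in T, log2 fold change 1.85 ± 0.33, edgeR adjusted p = 0.00285), Lmo2, a transcriptional cofactor (1.82 ± 0.44, adjusted p = 0.0226), Marchf1, a ubiquitin ligase that lowers surface MHC class II (1.92 ± 0.52, adjusted p = 0.0435), Unc93b1, which carries nucleic acid-sensing Toll-like receptors to endosomes (2.12 ± 0.52, adjusted p = 0.0254), and Scd1, a fatty acid desaturase (303 to 349 CPM in B and 80.8 to 145 in T, 1.69 ± 0.22, adjusted p = 0.000284). At 100 nuclei the clusters at Cd38, Lmo2 and Marchf1 had 300, 121 and 141 counts in B and 0 in T.

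Higher in T patches were Jak1, a kinase of cytokine receptors (-1.56 ± 0.31, adjusted p = 0.00655), Inpp4b, a phosphoinositide phosphatase (47.2 to 108 CPM in T and 6.72 to 26.2 in B, -2.17 ± 0.43, adjusted p = 0.0066), Itpk1, an inositol phosphate kinase (113 to 274 CPM in T and 26.8 to 70.0 in B, -2.30 ± 0.32, adjusted p = 0.00038), and the cluster 23.8 kb from Il6st, the shared chain of interleukin 6 receptors (-1.09 ± 0.26, adjusted p = 0.0204). At Inpp4b the 100-nuclei libraries held 258 counts in 2 T libraries and 0 in B. At Jak1 the groups of patch libraries overlapped by a narrow margin, 44.8 to 130 CPM in B and 128 to 305 in T.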
